A study of Mus musculus with 2931 samples.

Results

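Venous endothelial cells (EC) line the veins and venules that carry blood out of a tissue. The cells described here are those that the authors labelled Venous EC in a single-cell RNA-seq study of mouse lung endothelium, and no cell was clustered again. There were 203 of them among 2931 cells (6.93%), and the other cells carried 9 other subtype labels: Early and Late Car4- capillaries, Car4+ capillaries, Arterial EC I and II, Lymphatic EC, Nonproliferative embryonic EC, Proliferative EC and Proliferative venous EC. The cells came from 10 mice, 1 female and 1 male in each of 5 groups. A late embryonic stage (E18.5) and postnatal days 1, 7 and 21 (P1, P7 and P21) were in normal air, and a further group at P7 was labelled hyperoxia, meaning exposure to raised oxygen. The tissue label on the normal-air cells was distal lung. The strain, the oxygen level and the length of exposure are not given in the sources used here, nor is whether a mouse name stands for 1 animal. By its title the study asked how lung endothelium varies while the lung grows quickly after birth, and how injury affects it.

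In the lung the pulmonary veins carry oxygenated blood to the heart. Vein identity in endothelium is set by the transcription factor Nr2f2 (COUP-TFII), which holds down the Notch programme that marks arteries. Large veins also have a wall of elastic and collagenous matrix, and venous endothelium is the main site at which leukocytes leave the blood in many tissues. Lung endothelium also clears amines such as noradrenaline from the circulation through membrane transporters.

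The venous EC held 183649466 reads in all, with a median of 854234 reads and 4529 genes per cell (range of reads 48970 to 2917660). By mouse the median depth ran from 184244 reads in the male P7 mouse to 1368430 in the male P21 mouse. The female and male mice held 11 and 11 venous cells at E18.5, 17 and 50 at P1, 21 and 23 at P7, 13 and 4 at P21, and 23 and 30 under hyperoxia. All but 7 of the 203 came from the CD31 gate, and those 7 carried a gate named mesench (3 from the female P7 mouse and 2 from each P21 mouse). With each cell thinned to 50000 reads, the median number of genes was higher in venous than in other EC in 9 of 10 mice, the exception being the male E18.5 mouse. The mice were spread over 6 sequencing runs named in the labels. Only 2 runs held CD31-gate venous cells of several groups, and values within those runs are given beside some of the results. At the same thinned depth the cardiac muscle marker Myh6, the epithelial marker Epcam and the leukocyte marker Ptprc had a read in 0 of 201 venous cells, which allows a share of up to 1.49% (3 cells of 201). The mesenchymal marker Col1a1 had a read in 4 of the 201 cells. Markers of other EC classes were read as well. The Car4- capillary marker Gpihbp1 had a read in 138 of the 201 (68.7%, against 81.1% of other EC). Car4 had one in 17 (8.46% against 30.9%) and the artery marker Gja5 in 8 (3.98% against 6.87%). The lymphatic marker Prox1 had one in 12 (5.97%), above the 3.69% of other EC. Summed over a marker list, the venous reads of a mouse held 0.585 to 118 reads per 1e6 reads of that sum (CPM) of 8 mesenchymal genes and 12.8 to 456 CPM of 6 cardiac genes, and the male P21 mouse, with its 4 cells, gave the highest value of both.

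The cells were described by the 4 markers given with the class. Since the markers came with the label, their detection is no separate check of it. Car8 encodes a carbonic anhydrase-related protein, Vwf the clotting and adhesion protein von Willebrand factor, Slc6a2 the noradrenaline transporter, and Moxd1 a protein related to dopamine beta-hydroxylase. At the thinned depth Vwf had a read in 98.5% of venous cells and Car8 in 92.5%, against 11.9% and 4.69% of the other EC. Slc6a2 had a read in 63.2% of venous cells and 0.738% of others, and Moxd1 in 32.8% and 0.628%. Of the 201 venous cells, 142 (70.6%) held reads of 3 or 4 of the markers. Arterial EC II, whose median depth of 850843 reads was close to the venous median, held Vwf reads in 95.2% of 42 cells and Car8 reads in 33.3%, but Slc6a2 reads in 0 of 42. Slc6a2 and Moxd1 did not mark the same venous cells throughout: 43 held both, 84 held Slc6a2 alone, 23 held Moxd1 alone and 51 held neither.

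Summed per mouse, Car8 ranged over the 10 mice from 308 CPM through a median of 839 to 1320 CPM in venous EC, and from 4.05 through 14.96 to 40.0 CPM in the other EC. Vwf ranged from 1021 through 2803 to 5772 CPM in venous EC and from 42.9 through 119 to 201 CPM in the others. For both genes every venous sum lay above every sum of the other cells. Moxd1 ranged from 0 through 119 to 539 CPM in venous EC, with the value of 0 in the male P21 mouse. Its highest sum in the other EC together was 7.37 CPM. Late Car4- capillaries alone had a mean of 83.3 ± 204 CPM of it (SD over 6 mice), beside 192 ± 184 CPM in venous EC (10 mice). Slc6a2 ranged from 0.112 through 269.8 to 2229 CPM against at most 11.02 CPM in the others, and its low values were the E18.5 mice.

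Venous EC were next set against all other EC of the same mouse, gene by gene, in the 9 mice with at least 8 venous cells. The value is a log2 ratio of CPM with 5 CPM added to each side, which understates the contrast of low genes. How the authors made the labels is not given in the sources used here, and labels of this kind usually come from the expression of the same cells, so the ratios describe the class and carry no test. Of 9583 genes with a mean of at least 10 CPM in either set, 60 (0.626%) were at least 2-fold higher in venous EC in each of the 9 mice, and 77 (0.804%) were at least 2-fold lower. Vegfc lay just inside that limit, with a lowest ratio of 1.02, and Tmem252 just outside, at 0.98.

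Among the 60, Car8 led with a median log2 ratio of 5.15 (range over mice 4.02 to 6.32). Cpe, a carboxypeptidase that trims peptide hormones, followed at 4.91, with 100 to 2468 CPM in venous EC and 1.96 to 77.3 CPM in the others. Vwf stood at 4.79 and Ctsh, a lysosomal cathepsin, at 4.69. Moxd1 stood at 4.65. The matrix metalloproteinases Mmp2 and Mmp16 stood at 4.55 and 3.70. Mmp2 had reads in 87.6% of thinned venous cells and 4.32% of others. Hdc, which makes histamine from histidine, had a median ratio of 4.18 and was at 35.4 to 330.2 CPM in venous EC and at most 10.3 CPM in the others. Its lowest venous values, 35.4 and 40.1 CPM, were those of the E18.5 mice. The rest of the leading 12 were the adhesion molecule Ncam1 (3.92), the lysophospholipid acyltransferase Lpcat2 (3.92), the adhesion receptor Adgrg6 (3.88) and the microfibril protein Mfap5 (3.85). The marker Slc6a2 had a median ratio of 5.52 but is not among the 60, because it reached only 0.03 in the male E18.5 mouse.

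**Figure D1:**
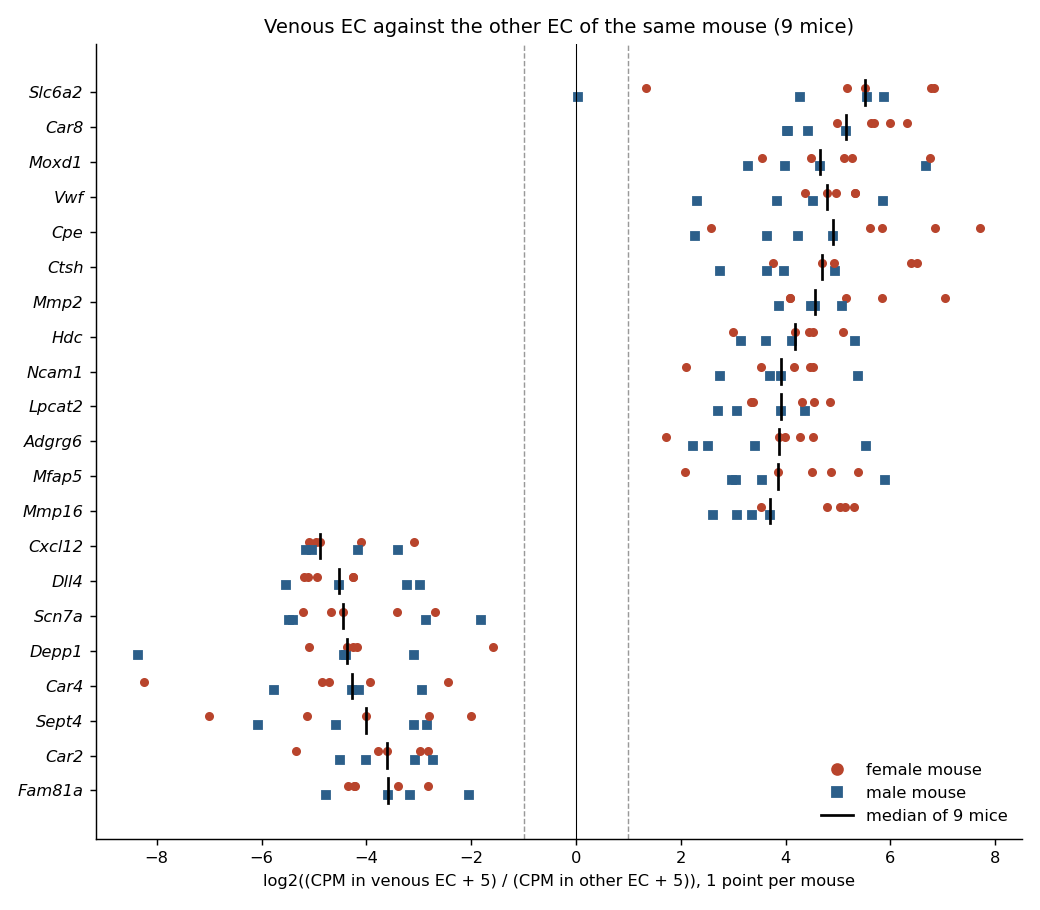
Log2 ratio of CPM in venous EC over CPM in the other EC of the same mouse, with 5 CPM added to both, for the 4 markers, the other leading genes and the 8 leading lower genes. Each point is 1 of 9 mice, black bars are medians and dashed lines mark a ratio of 1 and -1. All points of the higher genes lie right of the upper line except those of Slc6a2, which reaches 0.03 in the male E18.5 mouse.

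Of the 8 genes with the lowest ratios 4 had their highest mean in Car4+ capillaries, 3 in Arterial EC I and 1, Car2, in Proliferative EC. Cxcl12, a chemokine of arterial endothelium, had a median log2 ratio of -4.88, with at most 86.3 CPM in venous EC of any mouse and at least 173 CPM in the others. The Notch ligand Dll4 had a ratio of -4.53. The sodium channel gene Scn7a stood at -4.44 and Depp1 at -4.38. Car4, the carbonic anhydrase that names the Car4+ capillaries, stood at -4.28, with 0 to 95.4 CPM in venous EC against 33.3 to 3168 CPM. Sept4 (0 to 288 CPM against 181 to 1287 CPM), the carbonic anhydrase gene Car2 (-3.61) and Fam81a (-3.58) completed the 8 lowest. The venous and other ranges did not overlap for Cxcl12, Dll4, Scn7a, Car2 or Fam81a over the 10 mice.

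Read by list, 5 of 15 vein and venule genes were at least 2-fold higher in each of the 9 mice and 13 of 15 had a median ratio above 0, against 3356 of the 9583 genes. Nr2f2 ranged from 181 to 753 CPM in venous EC and from 9.68 to 133 CPM in all other EC as one set. Lymphatic EC alone held more of it, 702 ± 155 CPM (SD over 6 mice) beside 447 ± 170 CPM in venous EC (10 mice). Ackr3, a scavenging chemokine receptor, had a median ratio of 2.47 and the serine protease Prss23 one of 2.16. Bst1, a cell-surface nucleotide enzyme, stood at 3.03. Ephb4, the receptor that marks veins in development, was higher in 9 of 9 mice but by a median of only 1.04. Lyve1, a hyaluronan receptor best known from lymphatics, had reads in 96.5% of thinned venous cells, and its median ratio was 0.87 because the other EC held it too (76.7% of cells). Of 12 artery genes 6 were lower in each mouse and 2 had a median ratio above 0. Those 2, Fbln5 (3.33) and Mgp (1.90), are matrix genes as well.

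Several matrix genes of large vessels were high in venous EC. Elastin (Eln) ranged from 468 through 3273 to 5796 CPM in venous EC and from 18.4 through 169 to 691 CPM in the others, a median ratio of 3.61. Fibulin genes Fbln2 and Fbln5 stood at 3.53 and 3.33, and biglycan (Bgn) at 2.56. These ratios are against all other EC together. Arterial EC II alone held a higher mean, with 6356 ± 5265 CPM of Eln and 1058 ± 1459 CPM of Bgn (SD over 7 mice) beside 2996 ± 1816 and 810 ± 581 CPM in venous EC (10 mice). Eln and Bgn passed the limit in each mouse, and Col4a1, a basement membrane collagen, was lower in each mouse (-2.06). The median over the 11 matrix genes kept was 1.44, beside -0.18 over all 9583 genes.

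Genes of blood clotting and vessel tone differed in both directions. Procr, the endothelial receptor for protein C, ranged from 84.4 to 735 CPM in venous EC and from 2.14 to 73.3 CPM in the others (median ratio 3.69). The plasminogen activator gene Plat was lower in each mouse (-2.70). The protease inhibitor Serpine2 stood at 2.01 and Anxa2, a surface receptor for plasminogen, at 1.10. Among vasomotor genes Ptgs1, the constitutive cyclooxygenase, had a ratio of 3.41 and prostacyclin synthase (Ptgis) one of 2.87. Endothelin (Edn1) and its converting enzyme Ece1 were higher in 9 of 9 mice by medians of 1.12 and 0.76. The angiotensin-converting enzyme gene Ace was lower in 9 of 9 (-1.99). In the BMP and TGF-beta list, Bmp4 (3.02) was the only gene past the limit in each mouse, while the receptor Bmpr2 was lower in 9 of 9 (-1.03).

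Leukocyte adhesion genes were uneven. Icam1 was higher in 9 of 9 mice (median ratio 1.87) and had reads in 72.6% of thinned venous cells against 25.8% of others. The junctional molecule Jam2 was also higher in 9 of 9 (1.51), and Cd34 was lower in each (-2.21). The venule genes Ackr1, Selp and Sele were sparse: at full depth they had reads in 8, 19 and 15 of the 203 cells. Ackr1, the atypical chemokine receptor of venules, was read only at P1 (3 and 1 cells) and under hyperoxia (2 and 2 cells). Of the 5 amine handling genes with enough reads Slc6a2 had the largest ratio. Maob, an amine oxidase, had a ratio of 1.78 and Maoa one of -0.97, and the serotonin transporter Slc6a4 was at most 0.19 CPM in the venous EC of any mouse.

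Among the other subtypes the highest mean level was in Arterial EC II for 32 of the 60 higher genes, in Lymphatic EC for 11 and in Proliferative EC for 5. For 12 of the 60 that level lay above the venous mean, as for Eln, Bgn and Fstl1 in Arterial EC II and Nr2f2 and Lbp in Lymphatic EC, so being higher than the other EC together does not make a gene highest in venous EC. Ctsh lay the other way, with 1289 ± 728 CPM in venous EC (SD, n = 10 mice) and 890 ± 845 CPM in Arterial EC II (n = 7), values that overlapped. Car8 stood at 819 ± 361 CPM and 94.9 ± 104 CPM in those classes, and Vwf at 3002 ± 1368 and 1334 ± 555 CPM. Adgrg6 was close in the same classes, at 253 ± 81.3 and 228 ± 147 CPM. Over all genes the venous profile of a mouse was most like that of Early Car4- capillaries, with a Spearman correlation over genes of 0.734 to 0.857, in the 6 mice of P1, P7 and hyperoxia. At E18.5 the Nonproliferative embryonic EC were most alike (0.660 and 0.671), and at P21 the Late Car4- capillaries (0.682 and 0.501). These correlations share the mouse and its runs, and the classes differ in cell number. Across 9 subtypes the genes most like Car8 were Il15, Samd5 and Entpd1 (Pearson r of log2 CPM 0.93, 0.90 and 0.89), those most like Vwf were Klhl6, Adgrg6 and Ptprb (0.96, 0.94 and 0.94), those most like Slc6a2 were Amigo2, Ppp1r12a and Ackr3 (0.90, 0.88 and 0.87), and those most like Moxd1 were Pcdh7, Trip11 and Zwint (0.90, 0.90 and 0.88).

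Among CD31-gate cells the venous share was 3.72% and 3.77% in the female and male mice at E18.5, 5.40% and 21.6% at P1, 5.63% and 11.5% at P7, 3.90% and 0.840% at P21, and 8.68% and 11.8% under hyperoxia. The male P1 mouse stood apart, with an exact binomial 95% interval of 16.4% to 27.4%, and all of its venous cells came from a run that held no other CD31-gate venous cells. Over the 4 ages in normal air the shares did not differ beyond the spread between mice (p = 0.2 by an exact permutation test of the spread of group means, and 0.25 when adjusted over the 10 subtypes). The smallest p this design allows is 0.00952. A sort sets how many cells of a class are seen, so these are shares of sorted cells.

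**Figure D2:**
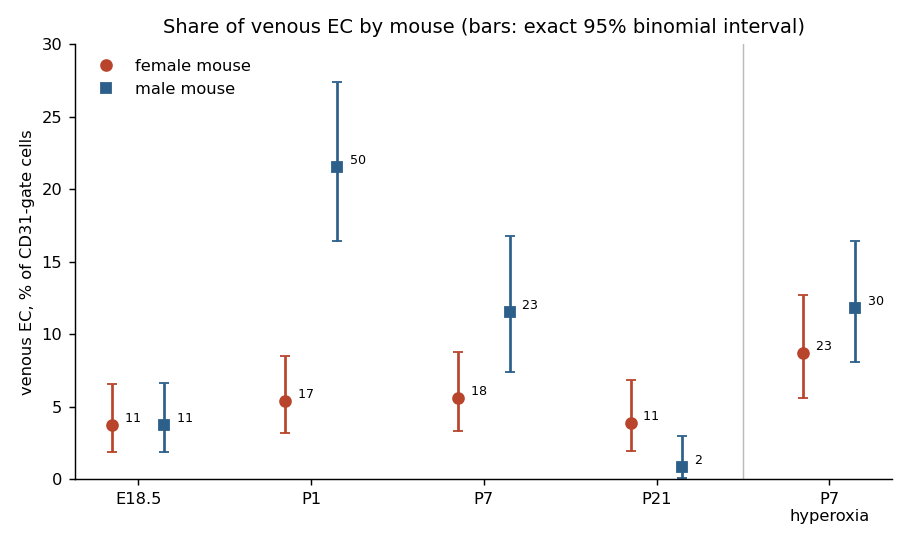
Venous EC as a percentage of CD31-gate cells for each mouse by age and treatment. Bars are exact 95% binomial intervals for counting error only and the small figures are numbers of venous cells. The male P1 mouse, at 21.6%, lies above all other mice.

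Slc6a2 was the only one of the 4 markers with each age above the one before. Its venous sums were 7.71 and 0.112 CPM in the female and male mice at E18.5, 179 and 91.9 CPM at P1, 567 and 543 CPM at P7, and 1815 and 2229 CPM at P21. The share of thinned venous cells with a read went from 2 of 11 and 0 of 10 cells at E18.5 to 9 of 16 and 24 of 50 at P1, 18 of 21 and 20 of 23 at P7, and 13 of 13 and 4 of 4 at P21. The count of 0 of 10 allows a share of up to 30%, counted like the limit above as 3 cells. The test over the 4 ages with edgeR's quasi-likelihood method gave an adjusted p of 0.0699 for Slc6a2, above the threshold of 0.05. In the male P21 mouse 74.3% of its Slc6a2 reads came from 1 cell. Within a single run the female mice had 7.71, 179 and 1791 CPM at E18.5, P1 and P21. In another run the male mice had 0.112, 543 and 884 CPM at E18.5, P7 and P21, the last from 2 cells. The values before P21 are the sums given above. Those at P21 leave out the mesench-gate cells, so the kept order is no separate check.

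The other markers had no such order. Car8 was at 499.6 and 381 CPM at E18.5, then 963 and 308 CPM at P1, 1320 and 959 CPM at P7, and 719 and 1119 CPM at P21, with overlap at every step from one age to the next. Vwf was at 5772 and 4752 CPM at P21, above all sums of the other groups, while the P1 values of 2309 and 1021 CPM overlapped those of E18.5 (1927 and 3083 CPM). The Vwf change from P7 to P21 was 0.96 ± 0.39 (log2 ± SE; unadjusted p = 0.0267, edgeR adjusted p = 0.561), so it did not pass. Moxd1 was at 111 and 512 CPM at E18.5 and at 55.2 and 0 CPM at P21.

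**Figure D3:**
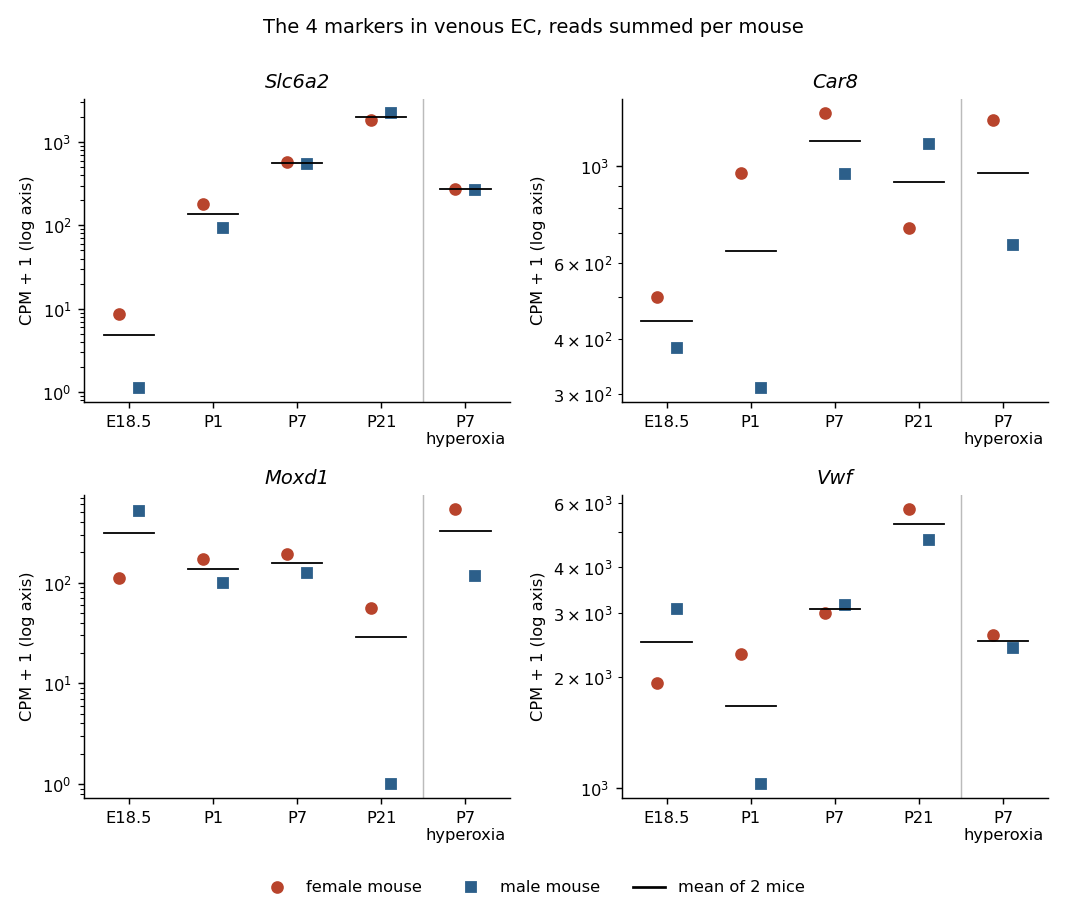
CPM plus 1, on a log axis, of the 4 markers in the venous EC of each mouse, by age in normal air and under hyperoxia at P7. Horizontal bars are means of the 2 mice. Slc6a2 runs from 7.71 and 0.112 CPM at E18.5 to 1815 and 2229 CPM at P21, while the groups of Car8 overlap at most ages.

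Over the 4 ages in normal air edgeR's quasi-likelihood test with Benjamini-Hochberg adjustment called 5 of 12450 genes (0.0402%) at a threshold of 0.05. Before adjustment 897 genes were under that threshold, and DESeq2 called 680. H2-K1, a class I histocompatibility gene, was at 23.4 and 3.91 CPM at E18.5, then 398 and 262 CPM at P1, 802 and 904 CPM at P7, and 1957 and 1921 CPM at P21 (adjusted p = 0.0199). Sp100, a nuclear body gene that interferon induces, was at 0 CPM in both E18.5 mice, 30.8 and 21.04 CPM at P1, 117 and 52.1 CPM at P7, and 400.4 and 517 CPM at P21 (adjusted p = 0.0213). Both rose without overlap at every step in these sums. Both belong to families of similar genes, so reads could be shared between copies. With CD31-gate cells alone Sp100 was not called (adjusted p = 0.533). In the run shared by the male mice it was at 0, 52.1 and 2.30 CPM at E18.5, P7 and P21, lower at P21 than at P7, while H2-K1 was at 3.91, 904 and 2569.5 CPM.

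The gene Mum1l1 was at 697 and 746 CPM at E18.5, then 70.1 and 55.9 CPM at P1, 72.7 and 19.7 CPM at P7, and 0.0711 and 0 CPM at P21 (adjusted p = 0.0199). H19 is an imprinted noncoding RNA of fetal tissue. Its E18.5 sums were 403 and 744 CPM, its P1 sums were 623 and 67.4 CPM, and it was at no more than 0.386 CPM in any later mouse (adjusted p = 0.0199). Lmcd1, a LIM-domain protein, was at 0 CPM in both E18.5 mice, 58.3 and 138 CPM at P1, 248 and 485 CPM at P7, and 179 and 145 CPM at P21 (adjusted p = 0.0199). Within the run that held female mice of 3 ages, Mum1l1 was at 697, 70.1 and 0.08 CPM at E18.5, P1 and P21, and H2-K1 at 23.4, 398 and 1858 CPM. Only the P21 values there differ from the sums above. Without the female E18.5 mouse the adjusted p was 0.145 for Lmcd1, 0.0687 for Mum1l1 and 0.0971 for Sp100. Without the male E18.5 mouse it was 0.112, 0.0623 and 0.0862 for those genes and 0.0623 for H19.

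Of the 12450 genes, 30 (0.241%) had each age wholly above the one before and 43 (0.345%) wholly below. The 30 include Slc6a2, H2-K1 and Sp100, and from the lists Ace, Bmpr2 and the kinase gene Bmx. Ace was at 41.5 and 32.7 CPM at E18.5 with 445 and 206 CPM at P21. Bmpr2 went from 87.3 and 93.3 CPM to 643 and 327 CPM. In the run shared by the male mice, whose P21 value rests on 2 CD31-gate cells, both genes were lower at P21 than at E18.5: Ace had 32.7, 92.3 and 27.6 CPM at E18.5, P7 and P21, and Bmpr2 had 93.3, 190.2 and 2.30 CPM. Within that run 14 of the 30 genes had each age above the one before, and 29 of 30 did within the run of the female mice. The 30 were picked by the order of these same mice. Values within a run differ from the sums only at P21, where mesench-gate cells are left out, so a kept order is no separate check. Others, singled out after their values were seen, were Slc43a3, a purine transporter (554 and 562 CPM at E18.5, 1650.2 and 4571 CPM at P21), and the interferon-induced GTPase genes Igtp (0.0975 and 0 CPM to 90.5 and 437 CPM) and Gbp2 (0.488 and 4.24 CPM to 298 and 140.4 CPM, but 0 at P21 in the male run). Sparcl1, a matricellular gene, was among the 43, at 840.03 and 616 CPM at E18.5 and 0.782 and 0 CPM at P21. Of these genes only H2-K1 and Sp100 passed the test. Without the male P21 mouse 108 genes had each age above the one before, and all of the first 30 were among them.

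**Figure D4:**
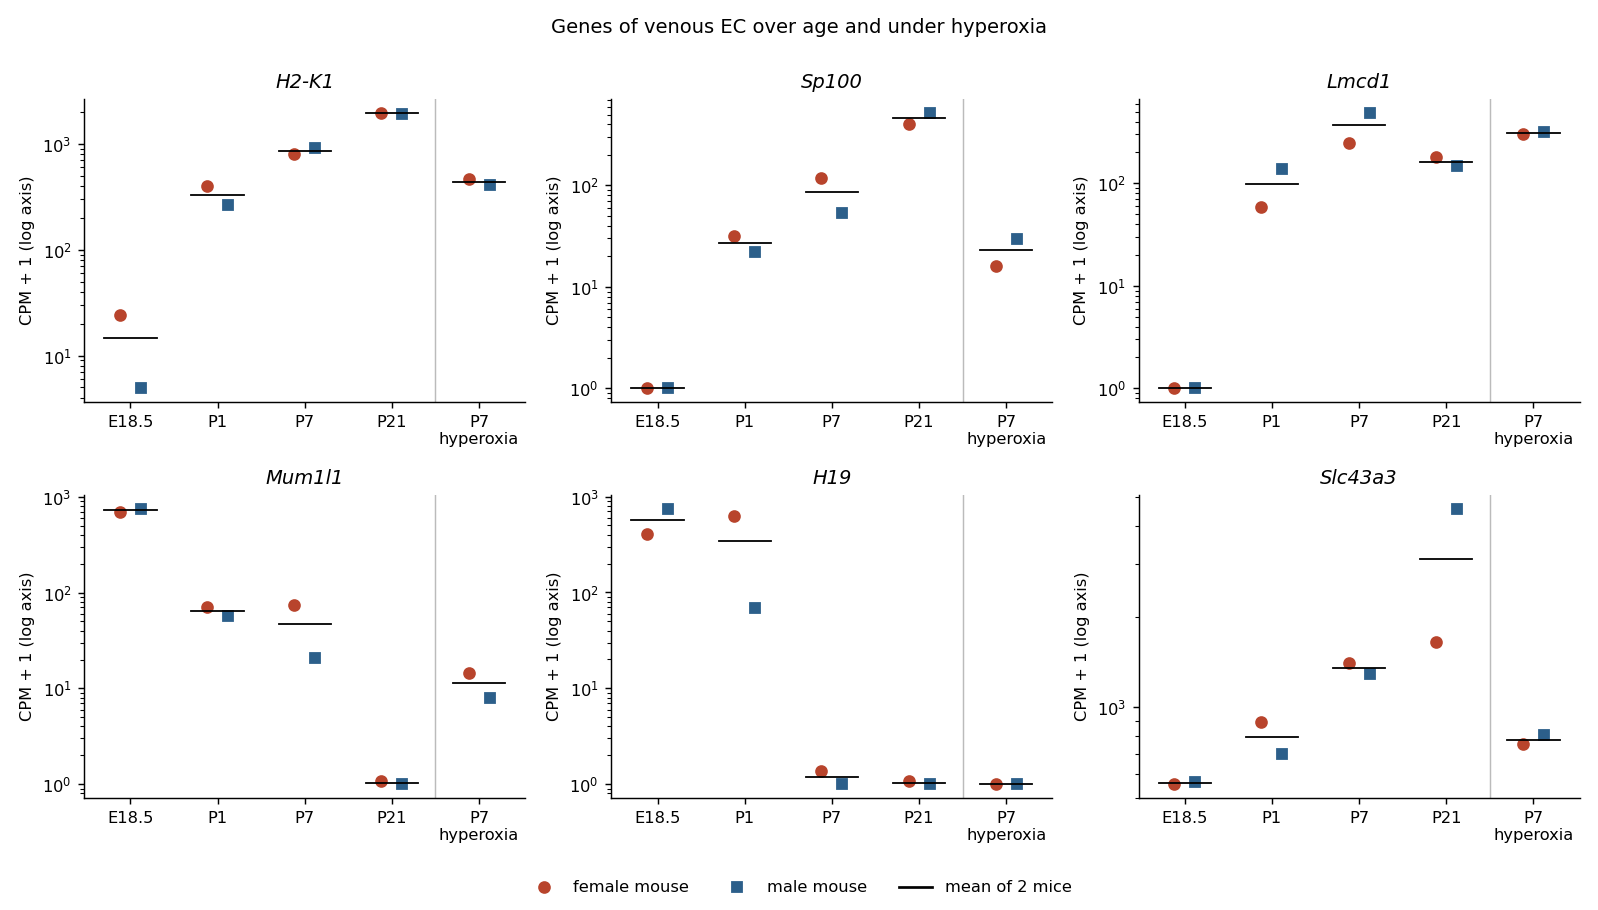
CPM plus 1, on a log axis, of 6 genes in the venous EC of each mouse, by age in normal air and under hyperoxia at P7. Horizontal bars are means of the 2 mice. In these sums over both gates H2-K1, Sp100 and Slc43a3 have each age above the one before, and Mum1l1 and H19 are highest at E18.5.

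The step from E18.5 to P1 gave 2 calls among 12326 genes (0.0162%) by edgeR, and both genes rose. Before adjustment 1074 genes were under 0.05, and DESeq2 called 543. Lmcd1 had 0 reads at E18.5 and was called (edgeR adjusted p = 0.00776). With 3 reads over the E18.5 group as the floor, its pooled reads were at least 803-fold higher at P1. Such a floor covers counting error only, not the spread between cells or mice. Igfbp5, which binds insulin-like growth factors, went from 0.0975 and 0 CPM to 85.7 and 183 CPM (adjusted p = 0.0357). Its pooled ratio rests on 1 read at E18.5 and has a counting interval of 577 to 127057 around 3217. Igfbp5 was not called with CD31-gate cells alone (adjusted p = 0.0724) or in a fit over all 10 mice (0.987). The mesenchymal marker list, which does not hold Igfbp5, summed to 25.9 and 28.7 CPM at P1 and 0.585 and 10.8 CPM at E18.5. Its part in these calls was not tested. Both P1 mice lay above both E18.5 mice for 27.4% of genes and below for 9.83%. Of 9 Car4+ capillary genes 5 lay above at P1 and 2 below, while their summed level was lower, with 926 and 1264 CPM at P1 and 2079 and 2187 CPM at E18.5. Car4 itself was at 0 in both E18.5 mice and at 38.0 and 24.7 CPM at P1. Of 8 endothelial genes, 3 lay below at P1 and 1 above. Tie1, an endothelial receptor, went from 952 and 1258 CPM to 491 and 461 CPM (log2 change -1.34 ± 0.48, SE), and the VEGF receptor Kdr from 424 and 859 CPM to 327 and 282 CPM. Ednrb, the endothelin receptor of Car4+ capillaries, went from 1736 and 1143 CPM to 753 and 382 CPM. The change in Tie1, Kdr and Ednrb did not pass (adjusted p 0.541, 0.555 and 0.515).

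The step from P1 to P7 gave 0 edgeR calls among 12326 genes (0.0%). Before adjustment 396 genes were under 0.05, and DESeq2 called 75. Both P7 mice lay above both P1 mice for 17.3% of genes and below for 18%. Matrix genes stood on the higher side: 6 of 12 lay wholly above at P7 and 1 below, with a median log2 change of 1.29 beside -0.08 over all genes. Fbln5 was at 1463 and 260.2 CPM at P1 and 4965 and 4397 CPM at P7 (log2 change 2.47 ± 0.70). Eln went from 1897 and 1357 CPM to 3605 and 4626 CPM, and Bgn from 394 and 80.8 CPM to 703 and 957 CPM. For these 3 genes the groups did not overlap, yet each had an edgeR adjusted p of 1. The artery list, which shares Fbln5 and Mgp with the matrix genes, summed to 976 and 1944 CPM at P1 and 5669 and 6718 CPM at P7. Its defining gene Gja5 was at 0 and 1.05 CPM at P1 and 41.9 and 4.10 CPM at P7, and its part in the matrix values was not tested. Of the 60 genes higher in venous EC, 20 lay wholly above at P7 and 6 below. From E18.5 to P1 it was 5 above and 14 below, beside 27.4% and 9.83% of all genes. From P7 to P21 it was 15 above and 13 below, beside 6.4% and 30.9%. The 60 were chosen from these same venous sums, the male P21 mouse aside, so the counts only describe them.

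The step from P7 to P21 gave 0 edgeR calls among 12450 genes (0.0%). Before adjustment 1062 genes were under 0.05, and DESeq2 called 1007. Both P21 mice lay above both P7 mice for 6.4% of genes and below for 30.9%. The P21 group rests on 13 and 4 venous cells, and its thinned cells held medians of 2978 and 1678 genes against 2608 and 3792 at P7. Mesenchymal genes summed to 24.3 and 118 CPM at P21 and 2.04 and 36.3 CPM at P7. The part of cell number, detection or other cells in that imbalance was not tested. Vein and venule genes went the other way in count: 5 of 15 lay above and 1 below. Prss23 went from 1477 and 902 CPM to 2389 and 4871 CPM, and Bst1 from 68.9 and 59.6 CPM to 187 and 792 CPM. Vcam1, a receptor for leukocytes, was at 0.116 and 86.4 CPM at P7 and at 882 and 1228 CPM at P21, read in 14 of 17 cells. Within the run that the male mice shared it went the other way, with 86.4 CPM at P7 and 1.72 CPM in the 2 CD31-gate cells at P21. Ephb4 lay below, going from 427 and 278 CPM to 162 and 49.3 CPM. Ednrb went from 660.0 and 418 CPM to 41.0 and 9.98 CPM (log2 change -4.28 ± 0.77, SE, edgeR adjusted p = 0.13). Leaving out the female P21 mouse gave 3152 calls and leaving out the male one gave 34.

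Hyperoxia against normal air at P7 gave 0 edgeR calls among 12326 genes (0.0%). Before adjustment 331 genes were under 0.05, and DESeq2 called 93. Both hyperoxia mice lay above both P7 mice for 17.6% of genes and below for 16.5%. The targets of p53, the transcription factor of the DNA damage response, stood out by count: 13 of 14 lay wholly above and Bbc3 below. Their median log2 change was 2.54 beside 0.01 over all genes, or 2.27 beside 0.07 on pooled reads with unread genes at the floor of 3 reads. Cdkn1a, which encodes the cell cycle inhibitor p21, was at 325 and 167 CPM in the female and male P7 mice and at 1849 and 3658 CPM under hyperoxia (log2 change 3.49 ± 0.71, SE; unadjusted p = 0.000359, edgeR adjusted p = 1). Bax, a trigger of apoptosis, went from 55.7 and 107 CPM to 456 and 722 CPM. Phlda3, an inhibitor of Akt, went from 149 and 105 CPM to 359 and 454 CPM. The nuclease gene Aen went from 18.8 and 9.87 CPM to 127 and 95.6 CPM. Eda2r, a death receptor, was at 0 in both P7 mice and at 17.2 and 60.0 CPM under hyperoxia. On pooled reads that is at least 465-fold higher, a floor that covers counting error only. None of these genes passed the test. Mesenchymal genes summed to 16.9 and 25.3 CPM under hyperoxia, inside the range of the P7 mice. Between the male mice of these groups alone 13 of 14 targets were higher under hyperoxia. All venous cells of both came from a single run. Their values are those already counted above, so this is no separate check.

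Immediate early and heat shock genes, which respond fast to stimulation and stress, lay on the lower side. Of 9 tested 5 lay wholly below and 0 above, beside 16.5% and 17.6% of all genes. Their median log2 change was -1.24. Fos went from 2422 and 5995 CPM to 1376 and 1629 CPM, and Egr1 from 827 and 835 CPM to 294 and 238 CPM. Junb went from 942 and 1570 CPM to 391 and 642 CPM, and Ier2 from 1541 and 1581 CPM to 631 and 889 CPM. The groups did not overlap for any of them, and none passed the test (adjusted p of 1).

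Of 13 proliferation genes tested 7 lay wholly above under hyperoxia and 0 below, beside 17.6% and 16.5% of all genes. Tyms, which makes thymidylate for DNA synthesis, went from 34.3 and 77.8 CPM to 223 and 226 CPM, and Pcna from 43.6 and 80.6 CPM to 113 and 111 CPM. Among venous markers Slc6a2 was at 273 and 266 CPM, below both P7 values (567 and 543 CPM), and Vwf at 2618 and 2403 CPM lay below its P7 values of 2989 and 3143 CPM. For Car8 and Moxd1 the groups overlapped. Car8 was at 1269 and 656 CPM under hyperoxia and at 1320 and 959 CPM at P7. Moxd1 was at 539 and 115 CPM under hyperoxia and at 191 and 122 CPM at P7. The log2 change of Slc6a2 was -1.03 ± 1.00 (SE), and none of the 4 markers passed. H2-K1 (461 and 405 CPM) and Sp100 (14.97 and 28.8 CPM) also lay below their P7 values, a comparison that shares its P7 mice with the steps of age above. Serpine2 went from 579 and 353 CPM to 1206 and 967 CPM and the sialomucin gene Emcn from 967 and 920.1 CPM to 1405 and 1710.1 CPM. Ackr1 had 0 reads in the 21 and 23 venous cells at P7, a count that allows up to 3 cells. Under hyperoxia it had reads in 4 of 53 venous cells. It was also read at P1 in normal air, and these counts are too few to show a change.

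**Figure D5:**
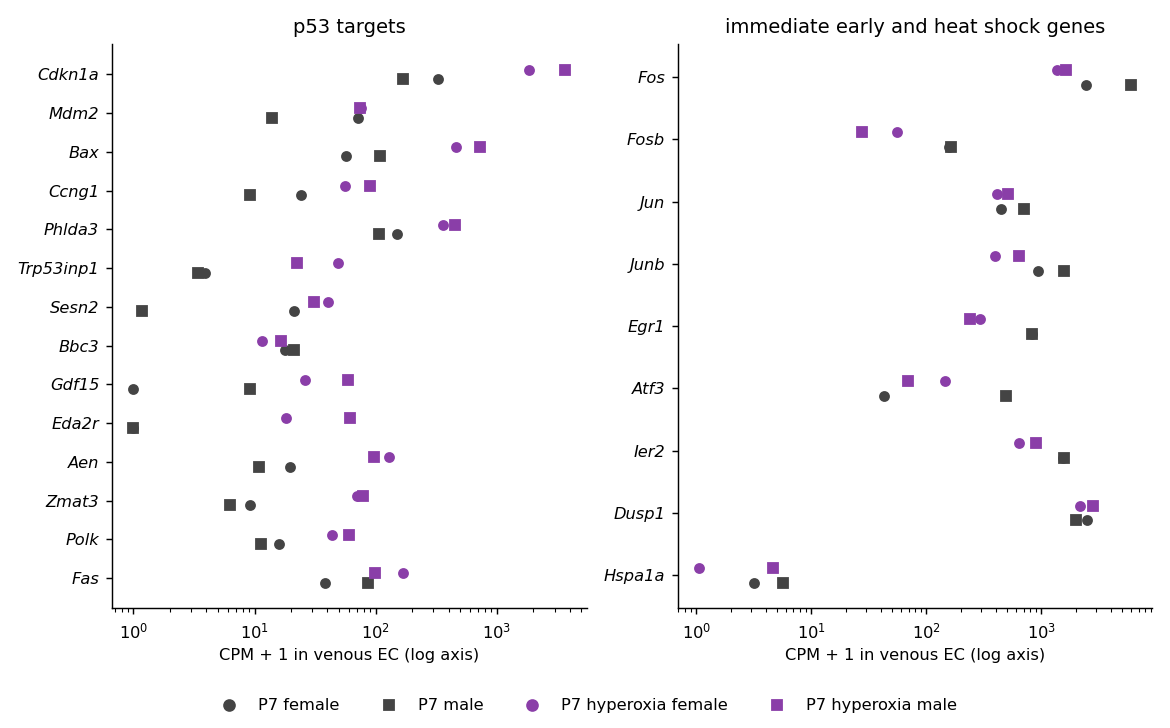
CPM plus 1, on a log axis, of the p53 targets and of the immediate early and heat shock genes in the venous EC of the P7 and P7 hyperoxia mice. Each point is 1 mouse. For 13 of 14 p53 targets both hyperoxia mice lie right of both P7 mice, and for 5 of 9 genes of the right panel they lie left.

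The hyperoxia effect in venous EC was compared with that in Early Car4- capillaries of the same mice. The interaction test gave 0 edgeR calls among 14308 genes (0.0%). Before adjustment 563 genes were under 0.05, and DESeq2 called 219. Cdkn1a went from 215 and 211 CPM to 2344 and 3409 CPM in the capillaries, and its effect in venous EC minus that in capillaries was -0.22 ± 0.47 (log2 ± SE). The gene with the smallest unadjusted p was Lyve1, named here after its values were seen. It was at 1952 and 1592 CPM in venous EC at P7 and at 2240.5 and 1761 CPM under hyperoxia, while in the capillaries it went from 886 and 734 CPM to 4025 and 3693 CPM. The difference of the effects was -2.05 ± 0.28 (edgeR unadjusted p = 4.3e-05, adjusted p = 0.369).

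A small class labelled Proliferative venous EC is left out of the sums above. It held 10 cells, 5 from each hyperoxia mouse and 0 from the 8 mice in normal air. Car8, Vwf and Nr2f2 had reads in all 10 cells, Slc6a2 in 5 and Moxd1 in 4. The cell cycle genes Top2a and Mki67 had reads in 10 and 9 cells. Car8 had a median of 1025 CPM over these cells and Vwf one of 1484 CPM. Among 390 cells labelled Proliferative EC, 12 held reads of both Car8 and Vwf at the thinned depth: 3 at E18.5, 1 at P1, 4 at P7 and 4 under hyperoxia. The female and male mice held 122 and 84 cells labelled Proliferative EC at E18.5, 13 and 9 at P1, and 55 and 34 at P7. Under hyperoxia they held 36 and 30. Of the 390 cells 5 held at least 3 of the markers. These were 2 of 34 in the male P7 mouse in normal air, and 2 of 36 and 1 of 30 in the female and male hyperoxia mice. Among the cells labelled Venous EC 8 of 201 held Mki67 reads. The female and male hyperoxia mice gave 2 of 23 and 2 of 30, and no other mouse gave more than 1. The label was given to hyperoxia cells alone, while cells labelled Proliferative EC with Car8 and Vwf reads also occurred in normal air. How the authors set the boundary between the labels is not given in the sources used here.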

How the data were processed

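Sorted lung endothelial cells were sequenced one by one from plates, as Tn5 libraries of full-length cDNA without molecular identifiers, so reads are not independent molecules and intervals cover counting error only. Per the submitters' processing notes, the tools were STAR 2.5.2b and HTSeq 0.10; a genome build for mouse is not given in the sources used here, and no coordinates are printed. The deposited values are whole read counts per gene and cell for 18072 symbols. The subtype labels are the authors'. A deposited sample is a single cell, so mice served as replicates. P-values measure the spread between mouse names. Doublets were not called.

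Reads were summed per mouse over venous EC and scaled to CPM. Sums were tested with edgeR 4.0.16 (R 4.3.3; TMM, filterByExpr, quasi-likelihood F test, Benjamini-Hochberg over all genes tested). E18.5, P1, P7 and hyperoxia shared a fit of 8 mice, and comparisons with P21 used all 10. The interaction had the mouse as a term. Venous against other EC was described in 9 mice with at least 8 venous cells. Cells were thinned to 50000 reads to compare detection (2 venous cells were shallower). Alternatives were DESeq2 1.42.0, limma 3.58.1, RLE scaling, other filters, CD31-gate cells, thinned cells and leaving out each mouse.

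The members and gene lists were chosen with earlier results of these data known. Named genes are the 4 markers, the 12 highest and 8 lowest genes by median ratio, called genes whose groups do not overlap, with a mean of 50 CPM or more on the higher side and reads in 25% or more of those cells, list members with high levels or large changes, and 3 genes most like each marker. Further list members were picked as examples after their values were seen. The scripts were tested on simulated data.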

Additional observations from a re-analysis of the deposited data

How the results depend on the processing

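The counts of called genes depended on the method. DESeq2 called 543 genes between E18.5 and P1, 75 from P1 to P7, 1007 from P7 to P21, 93 under hyperoxia, 680 over the 4 ages and 219 in the interaction. Without a filter beyond 1 read edgeR called 101, 21, 46, 13, 187 and 2 in that order. With thinned cells it called 6 between E18.5 and P1, 1 from P1 to P7, 6 from P7 to P21, 34 over the ages and 13 in the interaction. limma on the mean CPM over cells called 0 between E18.5 and P1 and 0 over the ages, where H2-K1 had an adjusted p of 0.0765 and the other called genes 0.0733. CD31-gate cells alone and a fit over all 10 mice gave 1 call each between E18.5 and P1, and RLE scaling gave 9 over the ages. With the sex of the mouse as a replicate block 1 gene was called between E18.5 and P1 (Lmcd1; Igfbp5 had an adjusted p of 0.15) and 6 over the ages, where Sp100 was not called (0.0557). The female mice share the letter that gives their sex, and some also share a sequencing run. The correlations of their deviations from group means were 0.0102 to 0.0759 over 10 pairs, and the block changed no other count of calls. Leaving out 1 mouse at a time gave 60 to 74 genes higher in venous EC, 80 to 116 lower (116 without the female P21 mouse), 4 to 666 between E18.5 and P1 (666 without the female and 233 without the male E18.5 mouse), 0 to 9 from P1 to P7, 0 to 3152 from P7 to P21, 0 to 9 under hyperoxia, 4 to 2354 over the ages, and 0 to 10 in the interaction; the adjusted p of the share ranged from 0.0714 to 0.5. A mouse left alone in its group was assumed to vary like the others, and the filter then kept more genes. A pseudocount of 1 CPM gave 118 lower genes. Chosen after the data were seen, leaving out the male P21 mouse gave 108 genes with each age above the one before. The cause of these differences was not tested.

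Log2 changes that reversed were small and uncalled. Moxd1 from P1 to P7 was -0.0012 with thinned cells and -0.10 by limma, and leaving out 1 mouse gave -0.28 to 0.60. Car8 from P7 to P21 was 0.052 by DESeq2 and by RLE scaling and 0.0025 with the replicate block, and leaving out 1 mouse gave -0.51 to 0.23. The Cdkn1a interaction was 0.069 with CD31-gate cells and -0.70 to 0.33 when 1 mouse was left out. The same omission gave -0.54 to 0.90 for Car8 and -1.99 to 0.026 for Moxd1 from E18.5 to P1. Under hyperoxia it gave -0.68 to 0.16 for Car8, -0.34 to 1.71 for Moxd1, -0.55 to 0.0018 for Jun and -0.037 to 0.50 for Lyve1. With 4 to 50 venous cells per mouse, differences in genes read in few cells were not detectable at this depth. The spread between mice was also wide: edgeR's common coefficient of variation was 1.061 in the fit of 8 mice and 1.275 in that of 10. With 2 mice per group, genes with many reads could miss the threshold too, as Cdkn1a did under hyperoxia. A gene without a call is therefore not shown to be unchanged.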
